A study of Mus musculus with 2 samples.

Results

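Keratins are the intermediate filament proteins of epithelial cells, and their genes were taken as every gene name on the array that begins with Krt followed by a digit, which leaves out the keratin-associated proteins (Krtap genes). This gave 52 genes with 68 probes among 37074 gene names with 56605 probes, namely 28 type I and 24 type II genes. The array carried 1 probe for 37 of them, 2 probes for 14 and 3 probes for Krt80. In the coordinates of the files, 37 probes lay on chromosome 11, 30 on chromosome 15, and 1, that of Krt85, had no position. The probe named Krt83 on the array carries an accession that the RefSeq gene table of GRCm38 assigns to Krt87, and the name of the array was kept.

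A type I (acidic) keratin pairs with a type II (basic) keratin, and the pairs assemble into the filaments that carry mechanical load from desmosome to desmosome. Which pair a cell uses follows its position and state: Krt8 and Krt18 mark simple epithelia, Krt5 and Krt14 the basal layer of stratified epithelia including the dental epithelium, Krt1 and Krt10 the layers above it, Krt6 isoforms with Krt16 and Krt17 activated epithelia and skin appendages, and further sets the inner root sheath and the shaft of the hair. In the mouse, the type I genes lie together on chromosome 11, and the type II genes with Krt18 lie on chromosome 15.

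The samples were mDE6 cells, described by their labels as mouse odontogenic epithelial cells, that is, cells of the tooth-forming epithelium grown as a line. One group, called control here, was kept for 6 h with the vehicle DMSO (labelled "0/1%DMSO"). The other was kept for 6 h with CHIR99021, an inhibitor of glycogen synthase kinase 3 that activates the β-catenin pathway; its label gives 5 mM, while the methods of the study give 5 μM and call the control untreated. The labels name no genotype or transgene for either group. Each group is 1 single-colour array of 1 RNA sample, so no test between the groups was possible and no difference below has a replicate check. Both arrays shared a slide, and the place on it and the treatment cannot be told apart.

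A value below is the signal of a spot after background subtraction. The ± beside it is the error that the image software assigned to that single spot, which is not a spread between samples. A spot is called detected here where the same software marked it as well above background, and the lowest detected signal was 23.7 on the control and 26.3 on the CHIR99021 array. A ratio is CHIR99021 over control after each signal was divided by the 75th percentile of its array. A ratio of at most 0.66 was counted as lower and one of at least 1.5 as higher. The methods of the study give the first of these limits and ask for a Z-score limit with it, so counts with a Z-score limit are given too. That limit is printed there as at most 2.0 for lower genes, and at most -2.0 was used here. No keratin spot was saturated or marked as an outlier.

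The probes that carry the results are 60 bases long, and their sequences are those of the array design. They are written 5′ to 3′ in the direction of the mRNA. All positions are in mm9; the files name no exons, and no annotation of that build was used here. The first set shows 3 of the probes for the 8 keratins that were detected on only 1 array, chosen as examples. The Krt7 probe lies on the plus strand at chr15:101253718-101253777. The Krt13 probe lies on the minus strand, and its 60 bases are spread over chr11:99980710-99980948, which is 239 bases of genome, so that it crosses a splice junction. The Krt42 probe lies on the minus strand at chr11:100128252-100128311.
Krt7: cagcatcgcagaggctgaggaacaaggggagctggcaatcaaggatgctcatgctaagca
Krt13: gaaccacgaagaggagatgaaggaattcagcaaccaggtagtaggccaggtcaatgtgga
Krt42: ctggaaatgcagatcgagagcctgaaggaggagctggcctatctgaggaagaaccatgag

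The second set shows the last 30 bases of probes for basal and activation keratins, with the hexamer AATAAA or ATTAAA in capitals, letters that often precede the 3′ end of an mRNA. The hexamer alone does not place the probe in its transcript. All 4 probes lie on the minus strand: Krt5 at chr15:101537514-101537573, Krt14 at chr11:100064495-100064554, Krt16 at chr11:100107408-100107467 and Krt17 at chr11:100117584-100117643.
Krt5: tgacttcctccagagtctgtccAATAAAat
Krt14: ccttgtccttcctggcaagcAATAAAgctt
Krt16: ggtaggctAATAAAgctttttggttgatgc
Krt17: tgcttgagaccATTAAAgcttgctgacctg

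Of the 68 keratin probes, 9 held AATAAA (13.2%, against 9.77% of all probes) and 4 held ATTAAA (5.88%, against 3.86%), read in the direction of the mRNA. On either strand, AATAAA was held by 11 keratin probes (16.2%) and by 13.3% of all probes. Of the 9 keratin probes with AATAAA, 4 were detected on the control array, and of the 59 without it, 12 were. Signals of different probes depend on the probe as well as on the mRNA, so no order of mRNA levels between genes was read from them.

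On the control array, 14 of the 52 keratin genes (26.9%) had a detected probe, and 33 genes had none on either array. On the CHIR99021 array 16 genes (30.8%) had one, and 11 genes had one on both arrays. Over all gene names on the array the shares were 48.9% and 47.6%, and over the gene names that carry a RefSeq mRNA accession 62.8% and 61.6%. Of the 51 keratin genes with such an accession, 14 (27.5%) were detected on the control and 15 (29.4%) on the CHIR99021 array. By type, 8 of the 28 type I and 6 of the 24 type II genes were detected on the control array, and 9 and 7 on the CHIR99021 array.

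**Figure D1:**
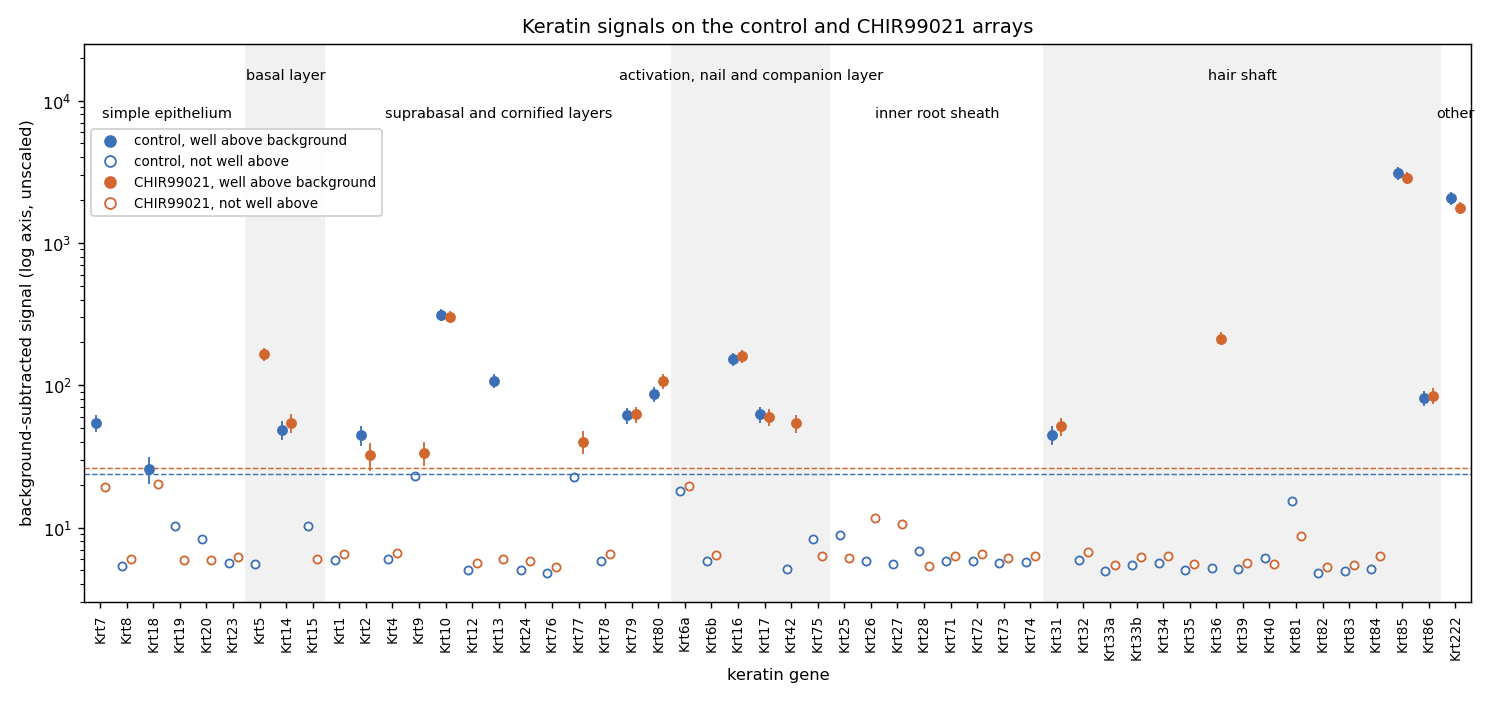
Background-subtracted signal (log axis, before scaling) of the probe used for each of the 52 keratin genes, ordered by role; blue is the control array and orange the CHIR99021 array, filled points were detected and open points were not, bars are the error of the single spot, and dashed lines are the lowest detected signal on each array (23.7 and 26.3). Most keratins sit as open points near 5 on both arrays; Krt85, at 3094 and 2868, and Krt222, at 2062 and 1771, have the filled points above the 75th percentile of each array, and 8 genes have a filled point on only 1 array.

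Of the 6 keratins of simple epithelia, 2 were detected on the control and 0 on the CHIR99021 array. Krt7, a type II keratin of ductal and glandular epithelia, had a signal of 54.3 ± 7.22 on the control and 19.3 ± 5.68 on the CHIR99021 array, detected on the control array only. Krt18, the type I partner of Krt8, gave 25.7 ± 5.63 and 20.4 ± 5.89, a value at the edge of detection on the control array. Both probes of Krt8 were near the floor, at 5.4 and 4.86 on the control array and 6.02 and 5.38 on the CHIR99021 array. Krt19, Krt20 and Krt23 were not detected on either array.

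Of the basal keratins, 1 of 3 was detected on the control array and 2 of 3 on the other. Krt14 was measured on both arrays, at 48.5 ± 7.23 on the control and 54.6 ± 8.09 on the CHIR99021 array. Krt5, its type II partner, gave 5.51 ± 5.52 on the control and 165 ± 17.6 on the CHIR99021 array. Krt15, a second basal type I keratin, gave 10.2 and 6.02 and was not detected on either.

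Among the 13 keratins of suprabasal and cornifying layers, 5 were detected on the control and 6 on the CHIR99021 array. Krt10, the type I keratin of cells that have left the basal layer, gave 313 ± 31.9 and 303 ± 31 at its probe at chr11:99246696-99246755. Krt2, a type II keratin of the upper epidermis, gave 44.5 ± 7.08 and 32.2 ± 7.0. Krt79 gave 61.4 ± 7.78 and 62.6 ± 8.27, and Krt80, a type II keratin found widely in epithelia, gave 86.5 ± 10.5 and 106.9 ± 12.6. Krt13, the type I keratin of the mouth and oesophagus, gave 108 ± 12 on the control and 6.04 ± 6.06 on the CHIR99021 array, and its second probe was not detected on either. Krt9, a keratin of palm and sole, gave 23.1 ± 5.38 and 33.5 ± 6.41, and Krt77 gave 22.6 ± 5.71 and 40.2 ± 7.15, both detected on the CHIR99021 array only. Krt1, Krt4, Krt12, Krt24, Krt76 and Krt78 were not detected on either array.

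Of the keratins of activated epithelia and appendages, Krt16 and Krt17 were measured on both arrays. The brighter Krt16 probe gave 152 ± 16.1 on the control and 160 ± 17 on the CHIR99021 array. Its second probe, at chr11:100107491-100107550, gave 81.5 ± 9.91 and 70.9 ± 9.38. Krt17 gave 62.4 ± 8.14 and 59.8 ± 8.29. Krt42, a nail keratin of the mouse, gave 5.12 ± 5.14 and 54.2 ± 7.95, and its second probe was not detected on either array. Krt6a, at 18.0 and 19.7, Krt6b and Krt75 were not detected on either array.

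None of the 8 inner root sheath keratins, Krt25, Krt26, Krt27, Krt28, Krt71, Krt72, Krt73 and Krt74, was detected on either array. Of the 15 hair shaft keratins, Krt31, Krt85 and Krt86 were detected on both arrays and Krt36 on the CHIR99021 array only. The Krt85 signal was 3094 ± 309 on the control and 2868 ± 287 on the CHIR99021 array. It rests on 1 probe, the one without a position, so its strand could not be checked. Krt31, a type I keratin of the hair cortex, gave 45 ± 6.83 and 51.5 ± 7.76, and Krt86, a type II cortex keratin, gave 81.5 ± 9.89 and 84.5 ± 10.5. Krt36, a type I hair keratin, gave 5.17 ± 5.18 on the control and 213 ± 22.1 on the CHIR99021 array, and its second probe was not detected on either. This second probe, at 5.06 and 6.58, is the Krt36 probe named by a RefSeq mRNA, and the detected one is not. Krt32, Krt33a, Krt33b, Krt34, Krt35, Krt39, Krt40, Krt81, Krt82, Krt83 and Krt84 were not detected on either array. The 46 keratin probes that were detected on neither array had signals of 4.75 to 18.0 (median 5.57) on the control array and 5.29 to 19.7 (median 6.02) on the CHIR99021 array.

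Krt222, a divergent relative of the type I keratins, was read by 2 probes. One, at chr11:99095480-99095539 on the minus strand, gave 2062 ± 206 and 1771 ± 177, and the other gave 5.16 and 5.66 and was not detected. The bright probe is shown because 22 of its 60 bases are a dinucleotide repeat, in capitals in its bases 18 to 47.
Krt222: ttgtACACACACACACACACACACACccgg

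A run of 8 AC units, on either strand (8 AC or 8 GT units), was held by 0.189% of the 56605 probes, of which the Krt222 probe was the only keratin probe. All of these probes, 39 with AC units and 68 with GT units, were detected on both arrays, with a median signal of 5849 on the control and 6170 on the CHIR99021 array, whereas 47.7% of all probes were detected on the control array. The part of the repeat in the Krt222 signal was not tested. Krt85 and Krt222 were also the only keratin probes above the 75th percentile of their array, which was 486.7 on the control and 469.17 on the CHIR99021 array.

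The labelled cell type was checked against lists of markers. Over all gene names, 48.9% were detected on the control and 47.6% on the CHIR99021 array. Of 10 epithelial markers other than keratins, 3 were detected on the control and 4 on the CHIR99021 array, with a summed signal of 2631 and 3131, most of it that of Trp63, while the median log2 ratio of the 3 detected on both arrays was -0.19. Detected on both were Cldn7 at 59.4 and 50.3, Esrp2 at 64.9 and 37.9, lower with a ratio of 0.606, and Trp63, the transcription factor of stratified epithelia, at 2306 and 2896. The Trp63 values are those of 1 of its 4 probes, of which 2 were detected on the control and 1 on the CHIR99021 array. Rab25 was detected on the CHIR99021 array only, at least 1.40-fold higher. Cdh1 (E-cadherin), at 5.51 and 6.13, Epcam, Cldn4, Esrp1, Grhl2 and Ovol1 were not detected on either array. All 15 mesenchymal markers were detected on both arrays, with a summed signal of 801045 and 737372, of which Col1a2 alone gave 270783 and 242601. Sums of different lists rest on different probes and were not compared. Of the mesenchymal markers, Pax9 was lower with a ratio of 0.659, and Twist1 and Msx1 were higher with ratios of 1.55 and 1.54. Of the defining markers of the labelled cell type, Trp63 and Krt14 were thus detected on the control array, and Cdh1, Epcam, Krt5 and Krt8 were absent from its detected genes, which goes against the label. The part of any other cells in these signals was not tested, and fewer cells of a type and less mRNA per cell cannot be told apart in such RNA.

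**Figure D2:**
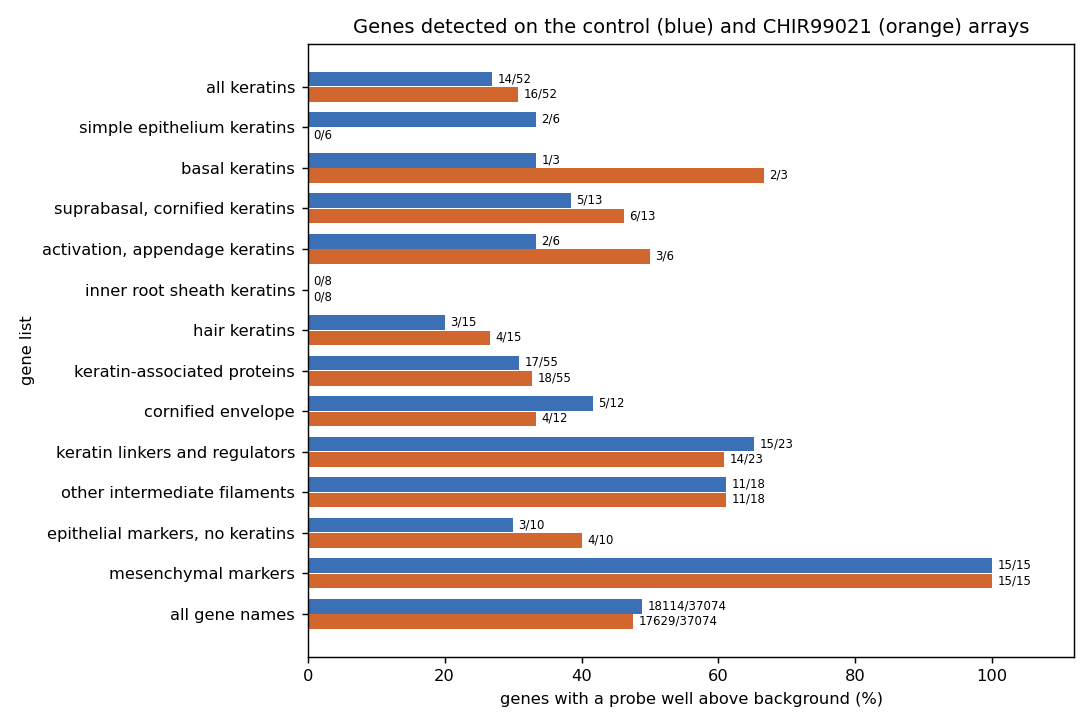
Percentage of the genes of each list with a detected probe on the control array (blue) and the CHIR99021 array (orange), with the counts beside the bars. All keratins stand at 14 and 16 of 52, inner root sheath keratins at 0 of 8, other intermediate filaments at 11 of 18 and mesenchymal markers at 15 of 15, beside 48.9% and 47.6% of all gene names.

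The 11 keratin genes measured on both arrays were Krt2, Krt10, Krt14, Krt16, Krt17, Krt31, Krt79, Krt80, Krt85, Krt86 and Krt222, and none was past a ratio limit. Their ratios ran from 0.750 for Krt2 to 1.28 for Krt80, with a median log2 ratio of 0.08. Among the scalings tried this median ran from 0.03 without scaling to 0.15 with spike-in scaling, and it was -0.01 with the probe of the lowest ratio taken for each gene. Over the 16886 genes measured on both arrays the median log2 ratio was 0.03, the quartiles were -0.18 and 0.22, 5.76% were lower and 5.06% were higher. The error of a log2 ratio, carried over from the errors of both spots, was 0.20 to 0.39 in these genes. The log2 ratio was within 1 such error of 0 in 9 of them and within 2 errors in all 11.

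By role, the log2 ratio on this scale was 0.22 ± 0.30 for the basal keratin Krt14 and 0.00 ± 0.21 for the suprabasal keratin Krt10. It was 0.12 ± 0.22 for Krt16 and -0.01 ± 0.27 for Krt17. Among the hair keratins it was 0.25 ± 0.31 for Krt31, 0.11 ± 0.25 for Krt86 and -0.06 ± 0.20 for Krt85, and it was -0.17 ± 0.20 for Krt222. Krt2 at -0.42 ± 0.39 and Krt80 at 0.36 ± 0.24 lay past 1 error. For Krt80 the second probe, at chr15:101180014-101180073, had a log2 ratio of -0.32 ± 0.30, from 63.3 and 48.9, on the other side of 0 from the first, and the third probe was not detected on either array. The second Krt16 probe likewise had -0.15 ± 0.26 beside 0.12 at the first. For these 2 genes the direction thus depends on the probe, and all 4 values lie within 1.5 errors of 0.

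**Figure D3:**
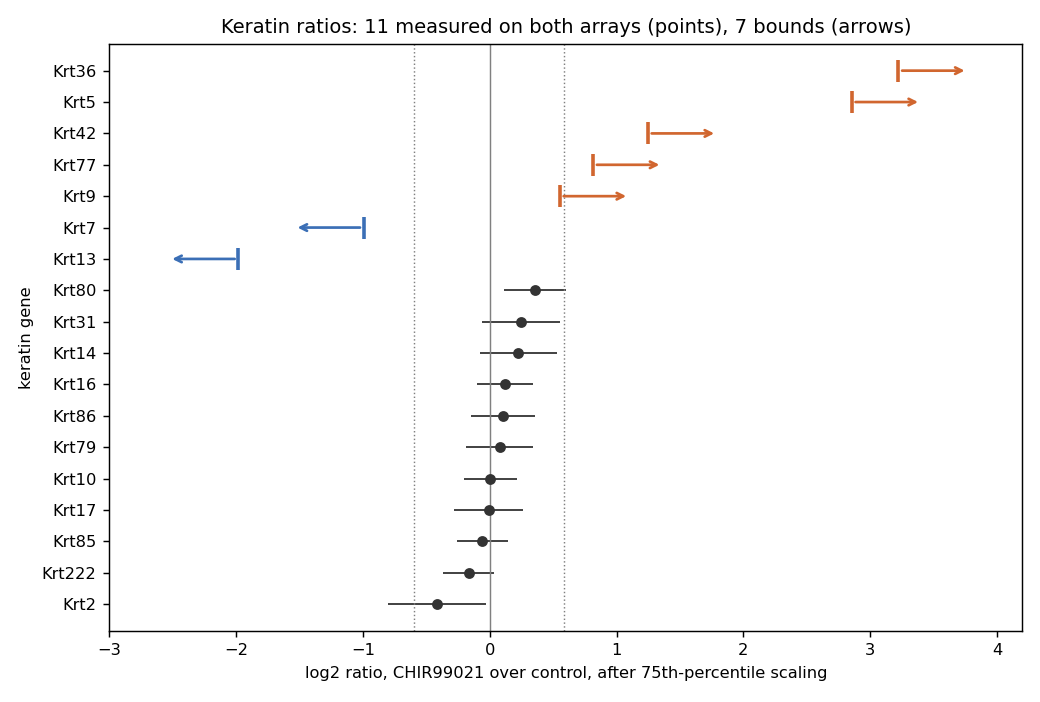
Log2 ratio of CHIR99021 over control after scaling for 18 keratin genes. Points with bars are the 11 genes measured on both arrays with the error carried over from both spots, from Krt2 at -0.42 to Krt80 at 0.36; upright marks with arrows are bounds for 7 genes detected on only 1 array, and dotted lines are the ratio limits of 0.66 and 1.5.

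Every keratin gene past a ratio limit was detected on only 1 array, so that its ratio is a bound. Krt13, Krt36 and Krt42 each had a second probe that was not detected on either array, for Krt36 the one named by a RefSeq mRNA. Lower were Krt13, at least 3.95-fold, and Krt7, at least 1.99-fold, which makes 2 of the 19 tested keratin genes, against 9.67% of the 18837 tested genes. Higher were Krt36, at least 9.34-fold, Krt5, at least 7.24-fold, Krt42, at least 2.38-fold, Krt77, at least 1.76-fold, and Krt9, at least 1.47-fold, which makes 5 of 19, against 8.05%. The bound of Krt9 is under the limit of 1.5 that its computed ratio of 1.51 passed, and without scaling Krt9 was not past that limit. These bounds hold for the background correction of the image software. Normexp background correction was tried with an offset of 50, which is added to every signal, dim ones included. The log2 ratio was then 2.04 for Krt36, a ratio of 4.10, 1.67 for Krt5, a ratio of 3.18, and 0.79 for Krt42, a ratio of 1.73, all still higher. It was -1.25 for Krt13, a ratio of 0.420 and still lower, while Krt7, at 0.729, Krt77, at 1.27, and Krt9, at 1.19, were within the limits. Krt18, the 8th gene seen on 1 array, had a computed ratio of 0.822 and no bound. Of all tested genes, 10.4% were detected on only 1 array, against 8 of the 19 keratins. With a Z-score of at most -2.0 or at least 2.0 asked for as well, against the 500 probes nearest in mean signal, Krt13 was the 1 lower gene (background 3.22%), and Krt36 and Krt5 were the 2 higher genes (background 2.63%). Krt7 had a Z-score of -0.85, which meets the limit for lower genes only as the methods print it.

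Most of the spots behind these values were uneven and in the later rows. Of the 9 keratin probes detected on only 1 array, 8 lay in the later rows, from row 193 of 384 on, where 34 of the 68 keratin probes lay. These were the probes of Krt5, Krt7, Krt9, Krt13, Krt36, Krt42 and Krt77 and the second probe of Krt79, and that of Krt18 lay in the earlier rows. The evenness of a spot was taken as the SD of its pixels over their mean, with 0.261 as the limit that 1% of detected spots in the earlier rows exceed. It was 0.442 for Krt36 (row 369), 0.347 for Krt42 (row 290), 0.324 for the second Krt79 probe (row 309), 0.323 for Krt5 (row 379), 0.305 for Krt77 (row 384) and 0.304 for Krt13 (row 381), all over the limit. It was 0.220 for Krt9 (row 223), 0.212 for Krt18 in the earlier rows and 0.151 for Krt7 (row 208), under the limit. Of the 13 keratin probes detected on both arrays, 8 lay in the later rows and 1, the second Krt80 probe, was over the limit.

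Neighbouring spots were counted as on/off where they were detected on the same 1 array and differed more than 4-fold. Within 3 rows and columns there were 11 such spots of 45 around Krt36, 4 of 46 around Krt42, 3 of 44 around the second Krt79 probe, 3 of 46 around Krt13, 2 of 32 around Krt5, 1 of 25 around Krt77 and none around Krt7, Krt9 and Krt18. Over all 1951 tested genes seen on only 1 array, 71.9% lay in the later rows, which held 52.2% of the tested genes, and 40.9% were over the evenness limit. Without uneven spots, Krt7 was the 1 lower and Krt9 the 1 higher keratin gene, and with the earlier rows alone no keratin gene was past a limit. The part of spot position and evenness in the Krt5, Krt13, Krt36, Krt42 and Krt77 values was not tested.

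**Figure D4:**
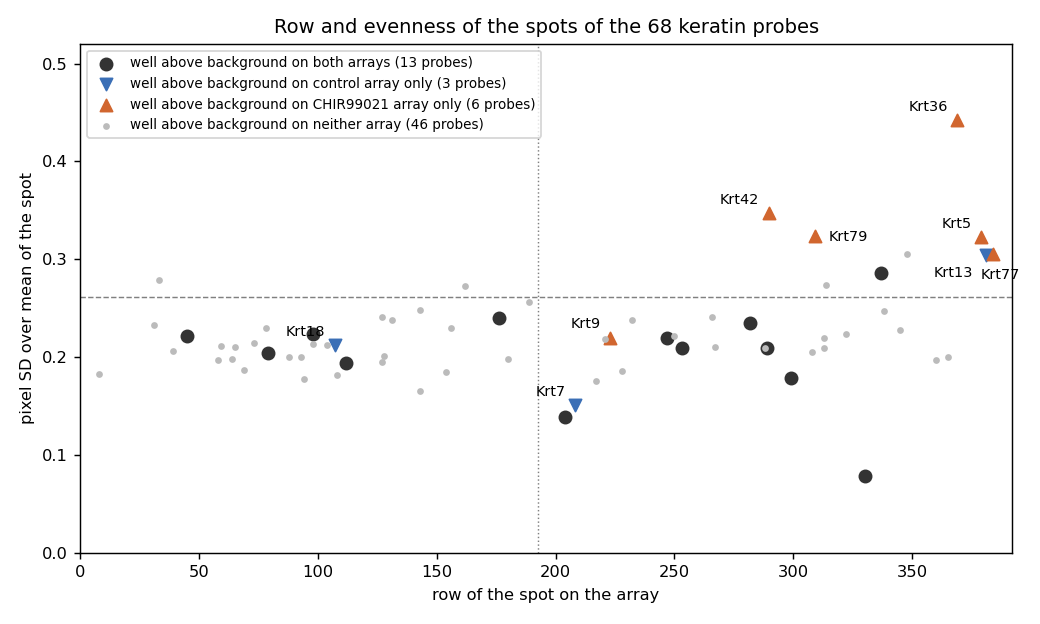
Row of the spot on the array against the SD of its pixels over their mean for the 68 keratin probes; for probes seen on 1 array the value is that of the array where they were detected, for the others the higher of both arrays, the dashed line is the evenness limit of 0.261 and the dotted line the start of the later rows. Of the 9 labelled probes, detected on only 1 array, 8 lie in the later rows and 6 above the dashed line.

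The second Krt79 probe reads the strand opposite to the gene. It lies on the plus strand at chr15:101764157-101764216, whereas RefSeq places the gene on the minus strand, where its first probe also lies. It gave 5.65 ± 5.67 on the control and 91.0 ± 11.1 on the CHIR99021 array, at least 3.99-fold, while the first probe had a log2 ratio of 0.08 ± 0.26. It therefore gives no value for Krt79 mRNA, and the ratio of Krt79 rests on the first probe.

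Genes that work with keratins were taken from lists. Of the other intermediate filament genes, 11 of 18 (61.1%) were detected on each array, with a median log2 ratio of -0.14. The shares were 48.9% and 47.6% over all gene names, and 62.8% and 61.6% over those with a RefSeq mRNA accession. Of the 11 tested, 1 was lower and 1 higher, beside 9.67% and 8.05% of all tested genes. Vim, the intermediate filament of mesenchymal cells, gave 52302 ± 5230 on the control and 45883 ± 4588 on the CHIR99021 array, a ratio of 0.910. Nes (nestin) had a ratio of 1.07 and the nuclear lamin Lmna 0.848. Iffo1, at 249 and 132, was lower with a ratio of 0.551, and Iffo2, at 3923 and 6006, was higher with a ratio of 1.59. Des and Gfap, of muscle and astrocytes, were not detected on either array.

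Of 23 genes on a list of keratin anchors, regulators of keratin genes and the keratinocyte-associated proteins Krtcap2 and Krtcap3, 15 were detected on the control and 14 on the CHIR99021 array. These are 65.2% and 60.9%, near the 62.8% and 61.6% of gene names with a RefSeq mRNA accession. Of the 16 tested, 4 were lower and 2 higher, beside 9.67% and 8.05% of all tested genes. Of the anchors, Eppk1 (epiplakin, which binds keratin filaments) had the lowest ratio, 0.289, from 126 and 35.2. Its 2 probes were detected on the control array, and 1 of them on the CHIR99021 array. Pkp2 (plakophilin of the desmosome), at 1221 and 706, had a ratio of 0.600. This ratio is that of 1 probe, and of the 3 Pkp2 probes 1 was detected on the control and 2 on the CHIR99021 array. Jup (plakoglobin), at 30.5 and 13.9, was at least 1.12-fold lower, being detected on the control array only. Pkp1, at 5.86 and 115, was at least 5.04-fold higher, with its spot in row 377 and an unevenness of 0.363. Plec (plectin) had a ratio of 1.07 and Dst (dystonin) 0.870, while Dsp (desmoplakin) was not detected on either array. Krtcap3, at 174 and 110, had a ratio of 0.655. Of the regulators, Grhl1 was higher with a ratio of 2.22, from 102 and 219, and Klf4 and Trp63 were within the limits at 1.21 and 1.30.

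Of 12 cornified envelope genes with a probe, 5 (41.7%) were detected on the control and 4 (33.3%) on the CHIR99021 array. The shares were 48.9% and 47.6% over all gene names, and 62.8% and 61.6% over those with a RefSeq mRNA accession. Of the 5 tested, 0 were lower and 1 higher. Sprr1b, at 48.9 and 75.9, was higher with a ratio of 1.61. Cdsn, Sbsn and Tgm3 were within the limits at 0.850, 0.807 and 1.05, and Ivl and Lor were not detected on either array. Among the 55 Krtap genes, which encode the matrix proteins around hair keratin filaments, 17 were detected on the control and 18 on the CHIR99021 array, beside 48.9% and 47.6% of all gene names. The 16 of them measured on both arrays had log2 ratios from -0.27 to 0.45, none past a limit. Of the 19 tested, 2 were higher and 0 lower, beside 8.05% and 9.67% of all tested genes. These 2 were detected after CHIR99021 only and are named after their values were seen. Krtap1-4, at 25.3 and 47.0, was at least 1.92-fold higher, and Krtap26-1, at 5.89 and 45.2, at least 1.98-fold, with its spot in row 354 and an unevenness of 0.278. No test of these differences was possible with 1 array a group.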

How the data were processed

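Total RNA of mDE6 cells was labelled with Cy3 and hybridised to 1-colour Agilent arrays, 1 array per group. Background-subtracted spot intensity was deposited by the authors, from Feature Extraction (10.7.1.1 in the file header, 9.5.1.1 in the submitters' processing notes), and a table of normalized intensity, used as an alternative. Coordinates follow the mm9 positions in the files. A human array is named in the methods, and a mouse array in the files.

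Outlier spots were left out and spots of a probe averaged. Signals were divided by the 75th percentile of their array. For each gene the probe with the highest mean signal among those well above background on at least 1 array was used (28066 probes, 18837 genes). A bound used the higher of the probe's own signal and the lowest signal well above background on that array. Among 220 probes printed at least 10 times, the SD of the log2 ratio had a median of 0.03, which covers spot error only. Depth of an array is limited by signal over background: 49.8% and 48.3% of 59305 spots were well above it, and 1 array per group limits the precision.

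Every keratin gene is named, with values where seen; of the other intermediate filament, linker and regulator, and cornified envelope lists, those past a limit and at most 5 further members, and of the marker lists, those past a limit and further examples. The members and lists were chosen with earlier results of these data known. RefSeq's table matched 51 of the 52 symbols. Tools were Python 3.11.15, numpy 2.4.6, pandas 2.3.3, matplotlib 3.10.9, R 4.3.3 and limma 3.58.1; ratio and bound calculations were tested on simulated data. Alternatives covered scaling, background, filters, probes, rows and uneven spots.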

Additional observations from a re-analysis of the deposited data

How the results depend on the processing

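No paired analysis was possible because each group has 1 array. The counts of keratin genes past a limit moved with the background correction and with filters on dim spots, uneven spots and rows. From 2 lower and 5 higher genes they went to 1 and 3 with normexp background correction (offset 50), to 0 and 0 with genes well above background on both arrays or with the earlier rows only, to 1 and 1 without uneven spots, and to 1 and 2 with the Z-score; calling spots by significance over background gave 5 lower and 7 higher genes. That call raised the detected keratins from 14 and 16 to 27 and 25, and the earlier rows alone held 6 and 5. Fewer genes were tested with both arrays asked for (16890), the earlier rows (10884) and even spots (17749), and more with significance over background (26014), against 18837. With normexp the number tested stayed at 18837, and the part of its offset of 50, added to every signal, was not tested. Without scaling, with the percentile taken over probes measured on both arrays, and with a floor on low signals, Krt9 was no longer past the limit of 1.5. The mean over probes put Krt79 past it, with a log2 ratio of 2.07, through its opposite-strand probe; leaving that probe out, an alternative chosen after seeing the data, changed none of the 5 results. The median log2 ratio of the 11 genes ran from -0.01, with the probe of the lowest ratio, to 0.15, with spike-in scaling. Of 170 log2 ratios of these 11 genes over the alternatives, 165 moved by less than the error of the gene's own ratio. Of 108 of the genes detected on 1 array, which have no such error, 94 moved by less than 0.20, the smallest error among the 11. The other 14 were values with normexp, which brought Krt36 from 5.42 to 2.04, Krt5 from 4.96 to 1.67, Krt42 from 3.46 to 0.79, Krt13 from -4.10 to -1.25 and Krt7 from -1.44 to -0.46, or with the floor, which puts the dim array at its lowest detected signal. No called value changed sign; Krt18, not called, went from -0.28 to 0.08 with normexp and with the floor.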
